A study of Homo sapiens with 42 samples.

Results

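The stretch of chromosome 19 from 20 to 30 Mb (hg38) spans the centromere and carries a large cluster of zinc finger genes on the short-arm side. Its accessible regions were taken from the deposited ATAC-seq count tables of 4 EGFR-mutant lung cancer cell lines, PC9, H1975, HCC827 and HCC2935. A region was a member if it started at 20 Mb or later and before 30 Mb and had a mean count of at least 5 per library in its line. This gave 881 of 2051 regions of the stretch in H1975, 261 of 934 in PC9, 236 of 381 in HCC2935 and 139 of 343 in HCC827. The mean count was 5.0 for the lowest member in every line, and the highest region left out had 4.917 in PC9 and H1975 and 4.889 in HCC827 and HCC2935. The stretch was chosen by the PC9 persister against control difference of its regions, so the PC9 persister against control values below are a description and carry no test.

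The 42 libraries formed 14 groups of 3. Osimertinib, an inhibitor of the mutant EGFR kinase, was given at 500 nM for 24 days to obtain drug-tolerant persisters (DTP), the cells that survive the drug. The sequential combination had osimertinib at 500 nM for 21 days and then AZD5153, an inhibitor of the BET bromodomain proteins that read acetylated chromatin, at 150 nM for 3 days. Whether osimertinib stayed on in those days is not stated in the labels. Controls had drug-free medium for 21 days and DMSO for 3 days in all 4 lines, and PC9 and H1975 also had AZD5153 alone, at 150 nM for 3 days after 21 drug-free days. The design text calls the libraries biological triplicates and names no separate cultures, so the p-values measure the spread between libraries, which may be partly technical.

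KRAB zinc finger proteins are a primate-expanded family of DNA-binding repressors. Most recognise transposable elements and recruit TRIM28, which brings the histone methyltransferase SETDB1 and HP1 proteins and so lays down H3K9me3 heterochromatin. Their own genes sit in clusters in which the gene bodies carry H3K9me3 while the promoters stay open, and ZNF91, in this stretch, is known for silencing SVA and LINE elements. ATAC-seq measures how often a transposase inserts into open DNA, so a heterochromatic block normally gives few regions outside its promoters. Next to the centromere both arms are rich in satellite and other repeats, and the sources used here do not give how reads matching several places were handled.

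The promoters of the zinc finger genes of the stretch are close copies of each other, which is why their sequences are shown before the values. Of the 30 genes whose symbol starts with ZNF, the 6 with the highest mean accessibility over the 42 libraries were ZNF724, ZNF91, ZNF254, ZNF493, ZNF682 and ZNF708. The lines below give the 150 bases before the transcription start of each, from RefSeq on GRCh38.p14, written 5′ to 3′ on the gene's strand, with each copy of the sequence TCCAATCAGG in capitals.
ZNF724, chr19:23250395-23250544, minus strand: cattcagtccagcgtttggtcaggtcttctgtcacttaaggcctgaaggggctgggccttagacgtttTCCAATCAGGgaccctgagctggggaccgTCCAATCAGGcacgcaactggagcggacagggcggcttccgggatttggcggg
ZNF91, chr19:23395472-23395621, minus strand: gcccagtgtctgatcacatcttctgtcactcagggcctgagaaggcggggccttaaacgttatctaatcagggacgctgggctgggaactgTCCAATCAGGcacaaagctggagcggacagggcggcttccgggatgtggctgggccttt
ZNF254, chr19:24087037-24087186, plus strand: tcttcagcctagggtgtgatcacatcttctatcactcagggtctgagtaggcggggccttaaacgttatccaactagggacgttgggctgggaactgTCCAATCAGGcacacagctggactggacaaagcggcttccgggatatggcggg
ZNF493, chr19:21396983-21397132, plus strand: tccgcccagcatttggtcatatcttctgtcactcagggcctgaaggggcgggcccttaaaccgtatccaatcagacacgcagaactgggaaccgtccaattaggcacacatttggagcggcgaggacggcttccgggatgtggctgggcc
ZNF682, chr19:20039506-20039655, minus strand: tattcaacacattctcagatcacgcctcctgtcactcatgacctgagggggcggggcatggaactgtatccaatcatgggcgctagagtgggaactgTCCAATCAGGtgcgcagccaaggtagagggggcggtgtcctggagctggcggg
ZNF708, chr19:21329411-21329560, minus strand: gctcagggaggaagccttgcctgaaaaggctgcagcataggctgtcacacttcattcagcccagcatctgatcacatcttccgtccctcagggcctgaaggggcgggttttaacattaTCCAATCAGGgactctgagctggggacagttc

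TCCAATCAGG holds a CCAAT box, the element bound by the factor NF-Y, and was chosen after the sequences were seen because it was the most widespread run of 10 letters among them. On either strand it was found in 23 of 27 promoter windows of 300 bases, from 26 ZNF genes of the stretch (85.2%). ZNF promoters elsewhere on chromosome 19 held it in 20 of 234 windows (8.55%), those of other chromosomes in 15 of 258 (5.81%), and all promoters in 0.347%. All 23 windows had it on the gene's own strand, with its first base 30 to 88 bases before the start (median 58). CCAAT alone, which overlaps it, was in 96.3% of the stretch's ZNF windows and in 34.6% of all promoter windows. These are letters found in sequence, and no factor's binding was measured.

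The libraries held 1724680 to 10062505 counts, and precision was lowest in HCC827 (1724680 to 4242868 counts, biological coefficient of variation 45.05%, against 0.99% in PC9, 3.2% in H1975 and 10.15% in HCC2935). Within PC9 groups, counts varied 0.955 to 1.043 times as much as counting noise alone gives, so these libraries differed by no more than sampling noise, and counts of PC9 and H1975 members are also given with each group's libraries summed to 1 and the dispersion of HCC2935. HCC827 libraries with the same replicate number deviated together (correlation 0.257 to 0.827), so its values are also given with the replicate number as a block. The H1975 libraries labelled AZD5153 stood apart: medians of 10 Mb bins over the genome ran from -1.39 to 1.55 (log2) against control, compared with -0.28 to 0.22 in PC9. Results that rest on them are the 2 H1975 comparisons with AZD5153, and the 2 without them are given beside. Epithelial promoters (EPCAM, CDH1, KRT8, KRT18, KRT19) had mean levels of 14.1 to 39.7 counts per 1000000 (CPM) in all 4 lines. PTPRC, which marks leukocytes, had no region in any, and CD3E had a mean per line of at most 0.593 CPM. Markers of other cells were not all low: by mean per line, endothelial CDH5 had 3.0 to 17.8 CPM, PECAM1 1.61 to 4.25 and PDGFRB 1.56 to 3.98. The fibroblast marker COL1A2 rose in persisters of H1975 (3.71, adjusted p = 1.14e-08) and HCC2935 (1.88, adjusted p = 2.79e-08), was 1.21 higher in those of PC9 and had no region in HCC827. PDGFRB, the other fibroblast marker listed, went the other way in PC9, where it was 1.34 lower in persisters than in controls. HCC2935 persisters also had less of PDGFRB (-0.95, adjusted p = 0.0643), but H1975 persisters had more (0.81, adjusted p = 0.00171). Of 11 markers tested, PC9 persisters had 2 higher and 4 lower, as a description. Besides PDGFRB, the lower ones were the lung marker SFTPB (-1.36), PECAM1 (-1.07) and EPCAM (-0.52). Persisters of H1975 had 2 higher and 5 lower of 11, HCC2935 1 and 2 of 11, and HCC827 0 calls of 9. The part of these markers in the results was not tested.

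In controls the stretch held 2.23% ± 0.0265 (SD, n = 3) of the chromosome 19 counts in PC9, 1.99% ± 0.11 in HCC827 and 2.56% ± 0.0346 in HCC2935, but 7.16% ± 0.0289 in H1975. Members were matched between lines where they overlapped by at least 50% of their length. H1975 had 621 members (70.5% of its own) matched in no other line, compared with 30 in PC9 (11.5%), 9 in HCC827 (6.47%) and 31 in HCC2935 (13.1%). Only 16.9% of H1975 members lay within 1 kb of a transcription start, against 34.9% in PC9, 46.0% in HCC827 and 31.4% in HCC2935. The stretch thus had its largest set of open regions away from promoters in H1975, mostly on the short arm (663 of 881). H1975 also reached the highest library counts (6200672 to 10062505), and a raw minimum count admits more regions at greater depth. The rest of chromosome 19 likewise had most regions there (13923, against 9587 in PC9, 7628 in HCC2935 and 5743 in HCC827). Of these, 33.7% lay within 1 kb of a start in H1975, against 39.3 to 47.1% in the other lines. The part of depth was not tested.

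**Figure D1:**
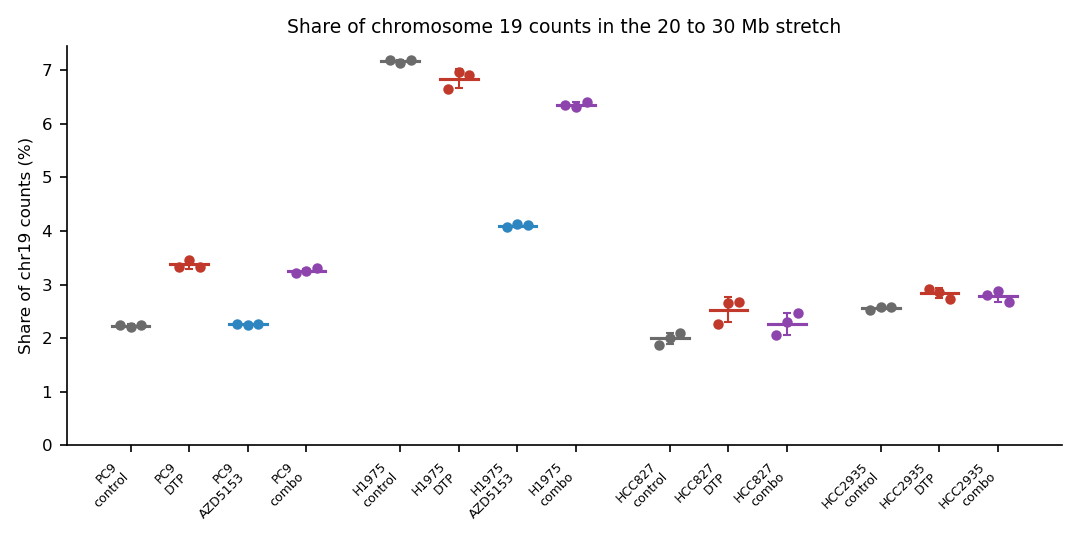
Share of chromosome 19 counts that fell in members of the 20 to 30 Mb stretch (y axis, percent), for each of the 42 libraries in 14 groups (points), with the group mean and SD. PC9 persister and combination libraries sit at 3.21 to 3.46%, above control and AZD5153 libraries at 2.2 to 2.27%, while H1975 falls to 4.07 to 4.12% with AZD5153.

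The share was higher in persisters than in controls in 3 lines and lower in H1975. In PC9 it was 2.24, 2.2 and 2.25% in controls and 3.33, 3.46 and 3.33% in persisters. It was 3.21, 3.25 and 3.30% in the combination and 2.27, 2.24 and 2.26% with AZD5153 alone. Every PC9 library that had received osimertinib was thus above every library that had not. In H1975 controls had 7.18, 7.13 and 7.18%, persisters 6.64, 6.97 and 6.91%, the combination 6.34, 6.31 and 6.40%, and AZD5153 alone 4.07, 4.12 and 4.11%. H1975 groups did not overlap, and AZD5153 alone was the lowest. HCC827 controls had 1.88, 2.00 and 2.10%, persisters 2.26, 2.66 and 2.68% and the combination 2.05, 2.30 and 2.46%. HCC2935 controls had 2.52, 2.58 and 2.58%, persisters 2.91, 2.86 and 2.73% and the combination 2.81, 2.88 and 2.67%. In both lines persisters were above all controls and overlapped with the combination. The share of all counts within 1 kb of a start, a sign of how promoter-centred a library is, was 40.0 to 40.6% in PC9 controls, 41.0 to 42.1% in persisters and 43.6 to 44.6% in the combination. In H1975 it was 36.4 to 36.9, 39.6 to 40.0, 42.0 to 42.4 and, with AZD5153 alone, 43.4 to 44.6%. Its part in these shares was not tested.

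The authors' peaks, called per library, also had a larger share in the stretch in PC9 groups given osimertinib than in the other PC9 groups. PC9 controls had 2.50 to 2.80% of their chromosome 19 peaks in the stretch, AZD5153 alone 2.49 to 2.51%, persisters 3.99 to 4.05% and the combination 3.07 to 3.65%. HCC827 had 2.24 to 2.44% in controls and 3.16 to 3.5% in persisters, and HCC2935 had 2.81 to 3.37 and 3.23 to 3.56%, which overlapped. In H1975 persisters the share of peaks was higher than in controls (7.23 to 7.83 against 5.89 to 6.25%), while their share of counts was lower. Among peaks with −log10 q of at least 5, persisters and controls overlapped in H1975 (6.06 to 6.53 and 6.16 to 6.21%) and in HCC827 (2.06 to 3.3 and 1.89 to 2.75%). They did not in PC9 (3.82 to 3.89 and 2.4 to 2.63%) or HCC2935 (3.21 to 3.48 and 2.76 to 2.87%). The number of peaks called moves with depth and with the height of the peaks, and the part of either was not tested.

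Region by region, 208 PC9 members passed the low-count filter. Between PC9 persisters and controls, 115 were called higher and 7 lower (percent called over all regions 15.4 and 16.4, or 31.7 in either direction; adjusted p under 0.05 in edgeR's quasi-likelihood test with Benjamini-Hochberg adjustment over all regions of the line, as for every call below). This comparison chose the stretch, and its counts are a description. The median log2 fold change of the members tested was 0.72, against 0.02 for the rest of chromosome 19. Among 298 bins of 10 Mb across the genome, the stretch had the highest median (SD of bins 0.142). Split into 3 equal groups by mean count, PC9 members had medians of 1.26 (low), 0.83 (middle) and 0.50 (high).

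The combination and AZD5153 libraries of PC9 were not used to choose the stretch. They did enter the mean count that members had to reach, so membership was not independent of their levels. In the combination against AZD5153 alone, 123 of 208 members rose and 8 fell (percent called 22.5 and 20.5), with a median of 0.76 against 0.12 in the rest of chromosome 19. With libraries summed, 99 rose and 6 fell. Among the 298 bins this was again the highest median. Split by mean count, members had medians of 1.45 (low), 0.95 (middle) and 0.60 (high), against 0.13, 0.13 and 0.10 in the rest of chromosome 19. AZD5153 alone against control gave 20 rises and 34 falls (percent called 11.2 and 14.6; summed, 7 and 26), with a median of 0.05 against 0.03. The combination against persisters gave 30 rises and 39 falls (percent called 10.6 and 11.7; summed, 3 and 23; DESeq2, 6 and 22), with a median of 0.10 in both the members and the rest. The comparisons share libraries and are not independent of each other.

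In H1975, 682 members passed the filter. Persisters had 224 members higher and 216 lower than controls (percent called 24.9 and 27, or 51.9 in either direction), with a median of 0.04 against -0.01. The combination had 64 higher and 189 lower than persisters (percent called 11.5 and 9.48; summed, 8 and 123), with a median of -0.31 against -0.09, the second lowest of 297 bins. AZD5153 alone had 100 higher and 262 lower than control (percent called 26.7 and 31.4), with a median of -0.35 while the rest of chromosome 19 had 0.57. Scaled by library size alone, which put the median of all regions at 0.185 in place of -0.037, that split was 147 and 226. The combination against AZD5153 alone gave 252 higher and 157 lower (percent called 31.2 and 29.9, or 61.1 in either direction), with a median of 0.16 against -0.76.

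In HCC2935, 177 members passed, of which 41 rose and 24 fell in persisters (percent called 18.7 and 18.6, or 37.3 in either direction), with a median of 0.04 against -0.03. Without persister replicate 2 the counts were 33 and 10, and without the filter, over 236 members, they were 48 and 11. The combination against persisters gave 1 rise and 20 falls (percent called 1.9 and 6.4, or 8.31 in either direction), with a median of 0.06 against 0.05. The called share was 11.9%, and without persister replicate 1 or 2 it was 6.22 or 5.73%. In HCC827, no member of 86 was called in either comparison by edgeR (percent called 0.0158 and 0.00607 in persisters against control, or 0.0219 in either direction, 0.0 in the combination against persisters). At an unadjusted p under 0.05 there were 7 and 6, and DESeq2 called 1 and 0. The persister median of 0.22, against -0.10 for the rest of chromosome 19, was the second highest of 286 bins. With the replicate block, 6 HCC827 members were called higher in persisters and 0 lower, and 0 in the combination against persisters.

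**Figure D2:**
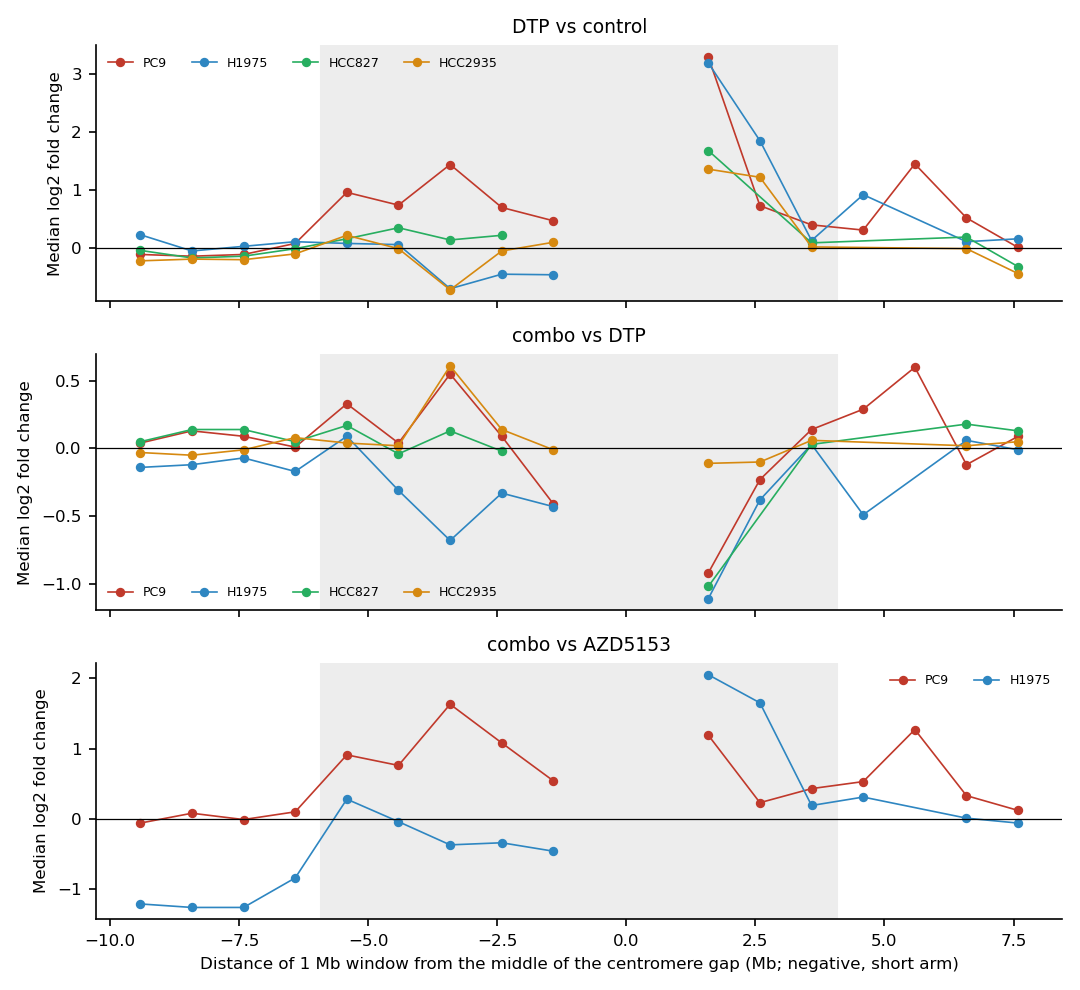
Median log2 fold change (y axis) of regions tested in 1 Mb windows along chromosome 19, against distance from the middle of the centromere gap (x axis, Mb), for DTP against control and the combination against DTP in each line and the combination against AZD5153 in PC9 and H1975, with the stretch shaded. Points are windows with at least 5 regions tested, and lines join neighbouring points of an arm. The first long-arm window stands out in persisters, with medians of 3.29 (PC9), 3.19 (H1975), 1.36 (HCC2935) and 1.68 (HCC827).

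Position along the stretch separated the lines. The gap between the last short-arm and first long-arm member was 3.34 to 3.63 Mb in the 4 lines. On the short arm, where most of the zinc finger genes lie, the persister median was 0.78 in PC9 (79 higher, 3 lower), -0.19 in H1975 (106 higher, 195 lower), 0.27 in HCC827 and -0.03 in HCC2935 (17 higher, 15 lower). H1975 windows starting at 22, 23 and 24 Mb had -0.70, -0.45 and -0.46, where those of PC9 had 1.44, 0.70 and 0.47. On the long arm, the window starting at 27 Mb, the first after the gap, had a median of 3.29 in the 15 regions of PC9, 3.19 in the 93 of H1975, 1.36 in the 8 of HCC2935 and 1.68 in the 7 of HCC827. The window starting at 29 Mb had 0.40, 0.13, 0.02 and 0.09 in the same order. In PC9 the higher values did not end at 30 Mb: the window starting at 32 Mb had 0.52 (n = 41), and that starting at 33 Mb had 0.01.

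Long-arm members that started before 29 Mb, next to the gap, mostly had higher values in persisters. This boundary was chosen after the values were seen, and members far from starts passed the mean count of 5 in controls alone in only 32 of 128 cases in H1975, 16 of 37 in HCC2935, 9 of 21 in PC9 and 5 of 9 in HCC827. The choice of members thus favours regions high in a treated group, and the counts, sums and adjusted p-values given below for this part are a description. The part holds no ZNF gene and its few annotated starts are of uncharacterised non-coding transcripts and of LINC00662 and LINC02987. It had 134 members in H1975 (114 tested), 43 in HCC2935 (30 tested), 25 in PC9 (20 tested) and 12 in HCC827 (9 tested). In H1975 persisters 98 rose and 7 fell, with a median of 3.04, with libraries summed 93 rose and 5 fell, and without the low-count filter 103 rose and 6 fell of 134, with a median of 2.75. In HCC2935, 19 rose and 1 fell, with a median of 1.22, and without the filter 23 rose and 0 fell of 43. In PC9, 15 were called higher and 0 lower (median 1.37), as a description. In HCC827, 0 were called (median 0.85), 4 with the replicate block, and 3 of 12 without the filter, all of them higher.

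**Figure D3:**
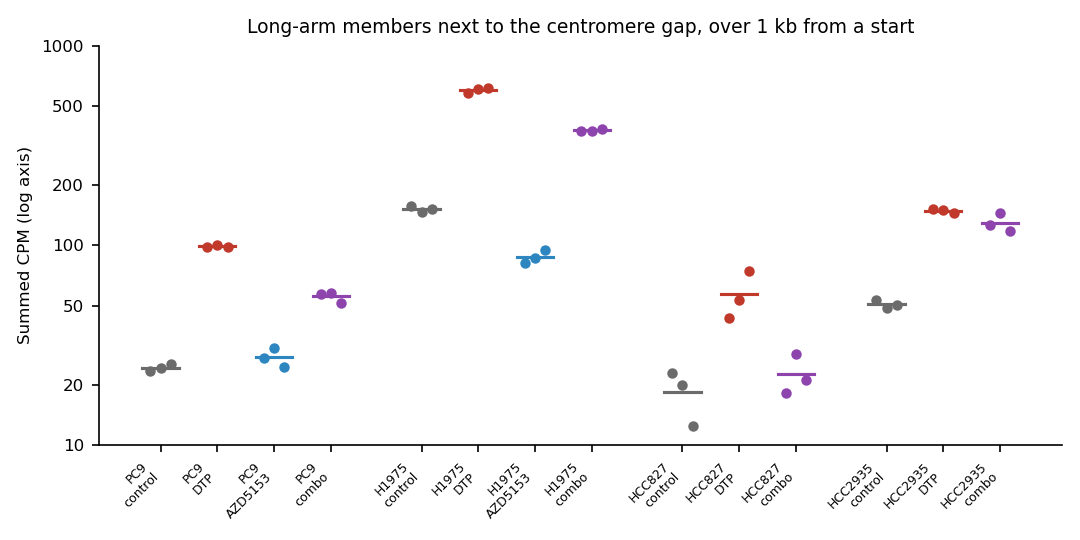
Summed CPM (y axis, log scale) of long-arm members that start before 29 Mb and lie over 1 kb from a transcription start, for each library (points), with a bar at each group mean. Persister libraries lie above all controls of their line in all 4 lines, and combination libraries lie lower than persisters in PC9, H1975 and HCC827 and reach the persister range in HCC2935.

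Summed over such members more than 1 kb from a start, PC9 had 23.5 to 25.6 CPM in controls, 97.8 to 101.0 in persisters, 51.6 to 58.0 in the combination and 24.7 to 30.6 with AZD5153 alone. H1975 had 147 to 157 CPM in controls, 581 to 610 in persisters, 373 to 382 in the combination and 81.9 to 95.3 with AZD5153 alone. HCC827 had 12.5 to 23.1 CPM in controls, 43.2 to 74.2 in persisters and 18.2 to 28.7 in the combination. HCC2935 had 48.4 to 53.5, 145 to 152 and 118 to 145 CPM. In every line persisters lay above all controls, and in PC9, H1975 and HCC827 the combination lay between or overlapped controls and stayed below all persisters. Over all regions of the table in the same place, with no minimum count, persisters were also above all controls, at 655 to 668 against 178 to 190 CPM in H1975 (294 regions), 152 to 165 against 58.6 to 64.9 in PC9 (157), 166 to 174 against 68.6 to 71.1 in HCC2935 (81) and 114 to 132 against 39.7 to 50.8 in HCC827 (62). Over only those with a mean count of 5 in controls the difference was smaller, at 212 to 237 against 124 to 131 CPM in H1975 and 74.9 to 83.6 against 37.3 to 48.1 in HCC2935. In this smaller set the combination overlapped persisters in H1975 (202 to 213 CPM) and HCC2935 (61.1 to 86.6). It stayed below persisters in PC9 (26.2 to 31.7 against 44.4 to 52.7) and HCC827 (15.1 to 21.8 against 27.6 to 44.7). Both sets were added after the data were seen. Combination against persisters, 64 of the 114 members tested fell in H1975 and 4 rose (median -0.95; 55 and 0 with libraries summed), 12 of 20 fell in PC9 (median -0.83; 8 with libraries summed), 3 of 30 fell in HCC2935 (median -0.10) and 0 of 9 in HCC827 (median -1.02, 0 with the block). AZD5153 alone against control gave 1 rise and 0 falls in PC9 and 5 rises and 19 falls in H1975. The combination against AZD5153 alone gave 10 rises and 0 falls in PC9 (median 0.60; 7 and 0 with libraries summed) and 82 rises and 2 falls in H1975 (median 1.96).

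Single regions beside the gap went from near the floor to among the more open sites of the stretch. They were picked for large rises, and those with few control counts reached the minimum mean count only through treated libraries. Their adjusted p-values are therefore a description. In H1975 a region at 27669658 to 27670159, 17811 bases from the start of the non-coding gene LOC105372345, had 1 count over the 3 control libraries. Persisters had 15.1, 16.4 and 18 CPM there (474 counts, adjusted p = 4.16e-60), and the combination 2.85, 3.80 and 2.67 CPM (log2 fold change against persisters -2.43, SE 0.149, adjusted p = 3.09e-36). Persister libraries were far above all others, and the combination lay in between. In H1975 the regions at 27689817 to 27690318 and 28009617 to 28010118 also had 1 control count each, against 199 and 177 counts in persisters. In HCC2935 the region at 28129936 to 28130437, 129557 bases from the nearest start, had 3 control counts and 13.5, 13.1 and 12.3 CPM in persisters (adjusted p = 1.26e-15). HCC2935 regions at 28022995 to 28023496 and 27974103 to 27974604 rose by 4.23 (SE 0.485, adjusted p = 2.03e-09) and 3.51 (SE 0.345, adjusted p = 3.81e-11). In PC9 the region at 27635332 to 27635833 had 1.54, 1.20 and 1.99 CPM in controls, 17.8, 18.4 and 19 in persisters, 10.9, 14.4 and 8.96 in the combination and 2.77, 2.66 and 1.88 with AZD5153 alone. The 2 PC9 groups given osimertinib did not overlap with the other 2, and the combination was 2.23 above AZD5153 alone (SE 0.226, adjusted p = 5.05e-20).

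Of the loci beside the gap, 7 were members in all 4 lines, 10 in 3, 21 in 2 and 114 in 1. A locus at 27970958 to 27971459 (PC9 coordinates), 18510 bases from the start of LOC105372346, was a member in all of them. In HCC2935 it had 0.933, 0.949 and 1.75 CPM in controls and 12.2, 11.1 and 10.7 in persisters (3.18, SE 0.32, adjusted p = 7.61e-11). In H1975 it had 10.4, 10.3 and 10.6 CPM in controls and 21.3, 25.9 and 20.2 in persisters (1.13, SE 0.11, adjusted p = 2.06e-19). In both, every persister library was above every control. HCC827 had 2.60, 2.85 and 2.37 CPM in controls and 5.34, 6.77 and 18.2 in persisters (1.95, SE 0.483, adjusted p = 0.203, and 1.94 with adjusted p = 0.0102 under the block). PC9 had 1.02, 1.60 and 1.79 CPM in controls and 4.59, 3.03 and 4.71 in persisters. The groups did not overlap in these lines either. This locus did not fall in the H1975 combination, where it had 36.6, 32.5 and 29.2 CPM, 0.52 above persisters (adjusted p = 1.28e-07).

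The neighbouring locus at 27972297 to 27972798, 17171 bases from the same start, rose by 2.18 in HCC2935 persisters (SE 0.187, adjusted p = 1.04e-12) and by 0.48 in those of H1975 (adjusted p = 2.2e-07). HCC827 gave 1.68 (adjusted p = 0.326, and 1.65 with adjusted p = 0.0232 under the block). In PC9 it had 3.07, 1.20 and 3.18 CPM in controls, 5.93, 6.26 and 5.49 in persisters and 2.18, 0.862 and 2.35 in the combination, a fall of 1.73 from persisters (adjusted p = 3.31e-07). Combination libraries there were back among the controls. In H1975 AZD5153 alone took it from 21.9, 24.9 and 22.3 CPM to 5.44, 4.19 and 5.62 (-2.08, adjusted p = 6.49e-39), a group without overlap with any other.

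At the locus at 27860217 to 27860718, 41877 bases from the start of LOC101927151, the combination lay between controls and persisters in both PC9 and H1975. Persisters had 10.5, 9.90 and 11.0 CPM there in PC9 and 21.4, 24.9 and 23.3 in H1975, against 0.512, 0.599 and 0.795 and 1.55, 1.23 and 1.95 in controls. The H1975 rise was 3.89 (SE 0.167, adjusted p = 1.33e-60). In PC9 the combination had 2.77, 1.94 and 2.77 CPM, a fall of 2.10 (adjusted p = 9.97e-16), and in H1975 it had 18.9, 16.9 and 20.7, a change of -0.32 (adjusted p = 0.00481). The difference between lines was not tested. By contrast, the promoters of LINC02987 and LINC00662, the regions of this part that cover a start in all 4 lines, had persister log2 fold changes of 0.30 and 0.27 in PC9, 0.23 and 0.08 in H1975, 0.35 and 0.41 in HCC827 and 0.26 and -0.04 in HCC2935. Of the tests in the other lines, only that of LINC02987 in H1975 passed (adjusted p = 0.00699).

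**Figure D4:**
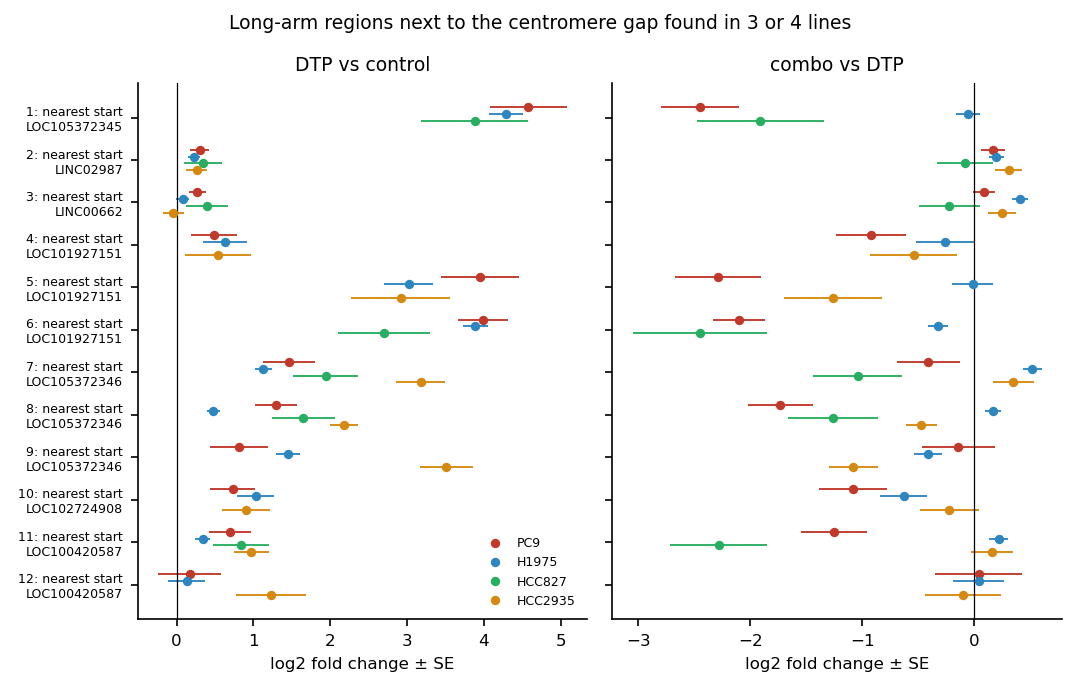
log2 fold change ± SE (x axis) of 12 loci beside the centromere gap that were tested in 3 or 4 lines, in order along the long arm and named by the nearest start (y axis), for DTP against control (left) and the combination against DTP (right). HCC827 values come from the fit with the replicate block, and folds of loci with 4 or fewer control counts depend on the prior count. Persister values of loci 1, 5 and 6 lie between 2.70 and 4.58, and those at the LINC02987 and LINC00662 promoters between -0.04 and 0.40.

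Most tested ZNF promoters of the stretch had higher values in PC9 persisters than in controls, and in the combination than with AZD5153 alone. For each ZNF gene of the stretch, the region with the highest mean count within 1 kb of its start was taken. In PC9, 21 of the 30 genes had such a region and 20 were tested. Persisters had 19 of the 20 higher than controls and 0 lower, with a median of 0.67 (a description; 10 with libraries summed). The combination against AZD5153 alone had 19 rises and 0 falls, with a median of 0.71 (16 rises with libraries summed). The 196 ZNF promoters tested elsewhere on chromosome 19 had 69 higher and 2 lower in persisters (median 0.22; 13 and 1 with libraries summed), and 151 rises and 2 falls in the combination against AZD5153 alone (median 0.43; 39 and 1 with libraries summed). The combination against persisters raised 10 of the 20 and lowered 0 (median 0.26; 0 with libraries summed). AZD5153 alone raised 5 and lowered 0 (median 0.16; 0 with libraries summed), where elsewhere on the chromosome it raised 9 and lowered 30 (0 and 4 with libraries summed). Percent called higher over all PC9 regions was 15.4, 22.5, 10.6 and 11.2 in these comparisons, in the order given.

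The other lines did not have the PC9 persister pattern at these promoters. H1975 persisters had 5 rises and 6 falls of 21 tested (median -0.06; 1 and 0 with libraries summed), HCC2935 4 rises and 1 fall of 19 (median 0.04), and HCC827 0 calls of 19 (median 0.37). The difference between lines was not tested. In H1975 the combination was higher than persisters at 17 of 21 and lower at 0 (median 0.32; 0 with libraries summed), beside 99 rises and 3 falls of 205 elsewhere on chromosome 19 (median 0.21; 0 and 0 with libraries summed). H1975 AZD5153 alone against control gave 3 rises and 6 falls (median 0.01; 0 and 2 with libraries summed), and the combination against AZD5153 alone gave 14 rises and 1 fall (median 0.28; 5 and 0 with libraries summed). Percent called higher and lower over all regions was 11.5 and 9.48 in the H1975 combination against persisters. It was 26.7 and 31.4 with AZD5153 alone, and 31.2 and 29.9 in the combination against it. HCC2935 gave 1 rise and 0 falls in the combination against persisters (median 0.20), and HCC827 gave 0 calls (median 0.07).

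ZNF91 had 20.2, 16.2 and 27.2 CPM in PC9 controls, 37.9, 36.0 and 35.3 in persisters, 49.0, 42.5 and 46.1 in the combination and 27.9, 30.6 and 28.8 with AZD5153 alone. Combination libraries were the highest and did not overlap with any other group, 0.67 above AZD5153 alone (SE 0.0873, adjusted p = 9.41e-13). Against persisters the combination was 0.29 higher (adjusted p = 0.00423, and 0.458 with libraries summed). In H1975 it had 52.6, 61.8 and 61.8 CPM in persisters and 78.3, 79.4 and 83.7 in the combination (0.43, SE 0.0586, adjusted p = 3.47e-10, and 0.228 with libraries summed), and in HCC2935 21.9, 23.9 and 24.2 and 29.7, 32.5 and 31.5 (0.42, SE 0.114, adjusted p = 0.0131, not past the threshold with DESeq2, without the filter or without persister replicate 1). In both lines the combination lay above all persister libraries. ZNF708 had 15.1, 15.2 and 18.7 CPM in PC9 controls, 29.7, 28.3 and 25.7 in persisters, 36.2, 32.8 and 34.6 in the combination and 14.6, 17.7 and 19.4 with AZD5153 alone, and the combination was 1.01 above AZD5153 alone (SE 0.106, adjusted p = 6.89e-19). ZNF724, the most open of these promoters at 40.8 CPM over 42 libraries, was 0.76 higher in the PC9 combination than with AZD5153 alone (adjusted p = 3.03e-17), ZNF682 0.81 (adjusted p = 7.45e-15), ZNF493 0.65 (adjusted p = 4.21e-10) and ZNF254 0.54 (adjusted p = 4.98e-09). With libraries summed, ZNF254 did not pass (adjusted p = 0.061) and the other 5 did. ZNF493, whose window lacks TCCAATCAGG, moved with the others there.

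In HCC2935 persisters ZNF682 went from 15.1, 14.7 and 14 CPM to 24.0, 26.0 and 23.7 (0.68, SE 0.139, adjusted p = 0.000123), without overlap, while ZNF91 had -0.11, ZNF724 -0.23 and ZNF708 0.01, none past the threshold. ZNF90 was the fall in this line, from 7.46, 4.27 and 3.00 CPM to 1.14, 2.30 and 1.46 (-1.67, adjusted p = 0.000195). In H1975 persisters ZNF682 fell by 0.25 (adjusted p = 0.000762), ZNF493 rose by 0.20 (adjusted p = 0.00436) and ZNF708 by 0.16 (adjusted p = 0.025), none of which passed with libraries summed. In HCC827 none of the 6 passed, and ZNF708 had 7.81, 4.89 and 13.6 CPM in controls against 13.4, 15.1 and 19.9 in persisters, which overlapped.

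**Figure D5:**
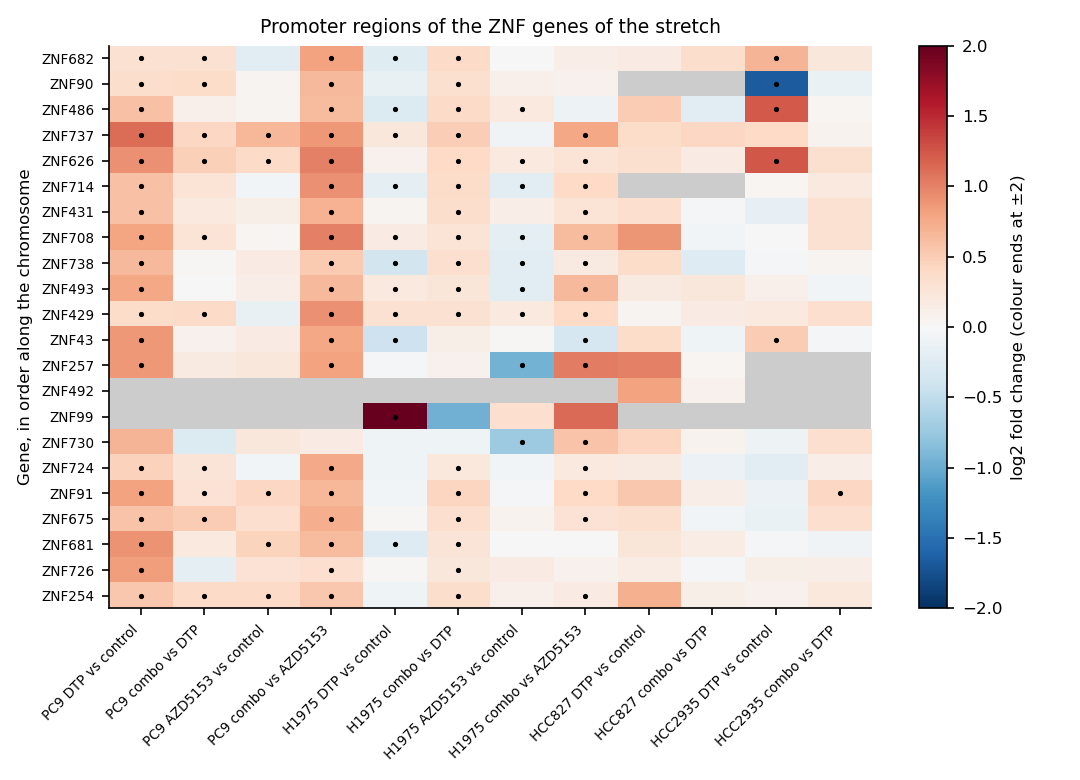
log2 fold change (colour, ends at ±2) of the promoter region of 22 ZNF genes of the stretch (rows, in order along the chromosome) in each comparison of each line (columns). Dots mark an adjusted p under 0.05 and grey marks regions not tested. Columns for PC9 DTP against control and PC9 combination against AZD5153 have 19 higher and 0 lower each, and those of HCC827 have no dot.

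Single regions on the short-arm side are given here as the largest called changes among members above the median level and without overlap between groups. In H1975 the region at 22331492 to 22331993, over the start of the non-coding gene LOC105372330, had 53.6, 55.6 and 45 CPM in controls. It had 1.57, 1.33 and 1.31 CPM in persisters (-5.16, SE 0.138, adjusted p = 8.19e-97), 3.18, 3.14 and 3.26 with AZD5153 alone and 0.712, 0.671 and 0.308 in the combination. All 3 treated groups were far below the controls. Inside ZNF730, the region at 23099013 to 23099514 had 51.7, 56.3 and 49.4 CPM in controls, 10.6, 16.2 and 12.7 in persisters, 4.87, 4.47 and 4.82 in the combination and 1.13, 1.5 and 1.48 with AZD5153 alone (-5.18 against control, SE 0.144, adjusted p = 9.28e-94). Inside ZNF90, the region at 20103070 to 20103571 was at 18.6, 17.1 and 13.2 CPM in controls, 21.5, 28.7 and 21.2 in persisters and 17.7, 16 and 21.0 in the combination, but at 0.113, 0.748 and 0.691 with AZD5153 alone. The combination was thus 5.08 above AZD5153 alone (SE 0.232, adjusted p = 3.54e-56). The overlapping PC9 region, at 20103075 to 20103576, changed in the same directions with AZD5153 alone (-3.28, SE 0.742, adjusted p = 0.000134) and in the combination against it (3.75, SE 0.678).

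Rises with AZD5153 alone in H1975, by the same choice, included a pair of regions inside ZNF708. That at 21321114 to 21321615 had 0.565, 0.369 and 0.487 CPM in controls, 6.81, 7.48 and 6.51 with AZD5153 (3.90, SE 0.305, adjusted p = 1.92e-27), and 1.9, 1.12 and 2.15 in the combination. The next, 21321974 to 21322475, rose by 3.79 (adjusted p = 9.76e-24). Inside ZNF431 the region at 21183283 to 21183784, 708 bases from a start, had 9.86, 11.4 and 9.15 CPM in H1975 persisters, 0.141, 0.246 and 0.244 in controls and 0.237, 0.336 and 0.410 in the combination (-4.89 from persisters, SE 0.282, adjusted p = 1.08e-39). Members inside a ZNF gene and over 1 kb from a start had a median of -1.23 with AZD5153 alone in H1975 (8 higher, 54 lower), where distal regions of the rest of chromosome 19 had 0.50. The other distal members of the stretch also had a negative median, -0.47 (51 higher, 175 lower). Over all regions 26.7% were called higher and 31.4% lower. In the combination against persisters, members inside a ZNF gene had -0.56 (3 higher, 33 lower) against -0.17. The other distal members had -0.37 there (26 higher, 143 lower), and over all regions 11.5% were called higher and 9.48% lower.

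Of the 34 PC9 members that fell with AZD5153 alone, 6 lay within 1 kb of a start, as did 80 of the 208 tested. The region at 23310747 to 23311248, inside ZNF91 and over the start of LOC124904675, had 6.40, 6.59 and 7.75 CPM in controls, 5.55, 7.47 and 7.65 in persisters, 2.57, 1.72 and 3.41 in the combination and 0.396, 0.571 and 0.188 with AZD5153 alone (-4.12 against control, SE 0.393, adjusted p = 6.26e-22). That at 23554574 to 23555075 had 8.19, 6.59 and 5.56 CPM in controls and 0.396, 0.571 and 0.565 with AZD5153 alone (-3.67, SE 0.374, adjusted p = 2.73e-19). Persisters were level with controls there, at 7.27, 5.66 and 4.71 CPM, and the combination was at 0.989, 1.51 and 0.853. Inside ZNF431, the region at 21143779 to 21144280 fell by 3.10 in the combination against persisters (SE 0.292, adjusted p = 1.57e-21). In these regions both groups that had received AZD5153 were below both that had not. In HCC2935 the falls in the combination included, again above the median level and without overlap, the region at 23312464 to 23312965, inside ZNF91 and 453 bases from the start of LOC124904674, with 5.84, 5.61 and 6.0 CPM in persisters and 2.68, 2.30 and 1.02 in the combination (-1.51, SE 0.332, adjusted p = 0.00191).

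Of all members tested, 125 of 208 in PC9 and 498 of 682 in H1975 lay on the short arm. Of those called higher in the combination than in persisters, 25 of 30 in PC9 and 52 of 64 in H1975 lay there. Among those above the median level and without overlap, H1975 had a region inside ZNF90 at 20082439 to 20082940, with 2.80, 2.97 and 2.81 CPM in persisters and 5.94, 5.59 and 6.97 in the combination (1.09, SE 0.189, adjusted p = 1.19e-06), and a region near ZNF675 at 23699149 to 23699650 (0.80, SE 0.0812, adjusted p = 1.34e-16). In PC9 the start of the pseudogene RPSAP58 had 18.2, 20 and 18.2 CPM in persisters and 29.9, 37.1 and 33.7 in the combination (0.79, SE 0.106, adjusted p = 4.34e-11). Each of these combination groups lay above all persister libraries. A region near ZNF486 at 20149465 to 20149966 rose by 0.84 (adjusted p = 0.000672). The PC9 region near URI1 at 29948783 to 29949284, had 0.77 (adjusted p = 0.00394), and did not pass with DESeq2, with libraries summed or without combination replicate 1 or persister replicate 3.

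From 29 to 30 Mb the long arm carries protein-coding genes that are not zinc finger genes. Among them are CCNE1, which encodes cyclin E1 of the G1 to S transition, UQCRFS1, a subunit of mitochondrial complex III, POP4, a subunit of RNase P, C19orf12, PLEKHF1, URI1 and VSTM2B. In PC9, promoters of 5 of the 7 rose in the combination against AZD5153 alone: VSTM2B by 1.20 (adjusted p = 4.79e-06), C19orf12 by 0.73 (adjusted p = 0.000103), UQCRFS1 by 0.51, PLEKHF1 by 0.43 and CCNE1 by 0.36 (adjusted p = 0.00422), of which 2 passed with libraries summed. Over all regions of that comparison 22.5% were called higher and 20.5% lower, or 42.9% in either direction. In persisters the CCNE1 promoter was at the control level (0.00), while a region 1287 bases from its start, at 29819944 to 29820445, had 5.12, 5.19 and 5.56 CPM in controls and 1.15, 0.808 and 1.37 in persisters. That region had 7.72, 9.52 and 10.5 CPM with AZD5153 alone and 0.198, 0.647 and 0.00 in the combination (-4.92, SE 0.393, adjusted p = 5.07e-31). Low values there thus went with osimertinib and high ones with its absence. H1975 had 2 rises and 1 fall among 6 of these promoters in persisters (UQCRFS1 0.34, POP4 0.29, PLEKHF1 -0.44; none with libraries summed), HCC2935 had 2 rises of 7 (POP4 0.60, URI1 0.59), and HCC827 had 0 calls. Over all regions 51.9% were called in H1975 persisters and 37.3% in those of HCC2935, so these counts were near the background.

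The partners through which KRAB zinc finger proteins act lie outside the stretch. Of the 13 listed that have a start in the annotation used, 12 had a tested promoter region in each line. Persisters had 4 higher and 0 lower in PC9 (ATF7IP, MORC2, CBX3 and CBX5, at 0.18 to 0.39), as a description (percent called over all regions 15.4 and 16.4). In H1975 0 rose and 6 fell, by 0.20 to 0.31 (among them DNMT1, the maintenance DNA methyltransferase, and CBX5, which encodes HP1 alpha). Of all H1975 regions tested, 51.9% were called between persisters and controls, counting either direction. In HCC2935 CBX3, which encodes HP1 gamma, rose by 0.45 (adjusted p = 0.00315) and SUV39H1, an H3K9 methyltransferase, by 0.61 (adjusted p = 0.000619), which is 2 of 12 where 18.7% of all regions were called higher. In HCC827 0 of 12 passed. The combination against AZD5153 alone raised 5 in PC9, led by CBX3 at 0.72 (adjusted p = 7.53e-17), where 22.5% of all regions were called higher. In H1975 it raised 2 and lowered 5, with DNMT1 at -1.05 (adjusted p = 4.27e-24), a comparison that rests on the libraries that stood apart. Over all regions of that comparison 31.2% were called higher and 29.9% lower, or 61.1% in either direction.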

How the data were processed

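ATAC-seq of 42 libraries from 4 cell lines was analysed from the tables the authors deposited. Per the labels, tools named without role or order were BWA 0.7.17, SAMtools 1.9, deepTools 3.4, MACS2 2.2.6, featureCounts 2.0.0 and ChIPseeker 1.29.1, with hg38. The authors deposited 1 table of raw counts per line over regions of equal width, an annotated subset of each, used here for transcript starts only, and 1 peak list per library with −log10 q-values, used here for numbers of peaks. The extraction protocol in the labels describes an H3K27ac immunoprecipitation, whereas titles and design say ATAC-seq, and the values were read as such.

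Members and gene lists were chosen with earlier results of these data known. Counts were fitted per line in edgeR 4.0.16 (TMM factors, filterByExpr, quasi-likelihood test on group means, all groups of the line in 1 fit), with Benjamini-Hochberg adjustment over all regions tested and a threshold of 0.05. The fit was tested on simulated data. CPM were TMM-scaled. The rest of chromosome 19 was held to the same mean count of 5. Transcription starts were those of RefSeq (GRCh38.p14) and of the authors' annotation. Named regions were, per comparison, the 3 largest rises and 2 largest falls that passed, had no overlap between groups and were above the median level, and named promoters were the 6 most open ZNF genes and the long-arm genes. The part before 29 Mb on the long arm, loci shared between lines and other regions were chosen after values were seen. Correlations of deviations between libraries of the same replicate number were 0.257 to 0.827 in HCC827, -0.01 to 0.013 in PC9, -0.062 to 0.015 in H1975 and -0.074 to 0.206 in HCC2935, and the numbers come from the labels. Intervals and folds cover counting error and library spread only. Alternatives were other scalings, no filter, DESeq2, the replicate block, a higher minimum count, summed libraries, a minimum fold and leaving out each library.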

Additional observations from a re-analysis of the deposited data

Results flagged for a closer look

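By their share of counts and on the short arm, H1975 persisters moved in the opposite direction to those of PC9. The share of chromosome 19 counts that fell in the stretch was higher in every persister library than in every control in PC9 (1.14 percentage points between means), HCC827 (0.54) and HCC2935 (0.273), and lower in every persister library in H1975 (-0.323). The median level of short-arm members relative to the rest of chromosome 19 (log2) moved by 0.731 in PC9 and by -0.18 in H1975, again without overlap between groups in either line. Over all H1975 members that level overlapped, at -0.002 to 0.101 in persisters and -0.02 to 0.006 in controls. On the long arm it was higher in H1975 persisters (1.24 to 1.46 against -0.041 to 0.009). The PC9 values are a description, since that comparison chose the stretch. The difference between lines was not tested, since regions were defined separately in each line.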

How the results depend on the processing

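Values here are the share of tested members called (edgeR quasi-likelihood, Benjamini-Hochberg) and the median log2 fold change of members minus that of the rest of chromosome 19. With each group's libraries summed to 1, which removes the small spread between libraries as evidence, the called share in PC9 was 38.5% in persisters against control (58.7% as reported), 12.5% in the combination against persisters (33.2%) and 15.9% in AZD5153 against control (26.0%), and in H1975 it was 19.2% in the combination against persisters (37.1%). Over all members without the low-count filter it was 36.8% for PC9 persisters, 20.7 and 23.6% for the combination against persisters in PC9 and H1975, 4.32% for HCC827 persisters and 6.36% for the HCC2935 combination against persisters. DESeq2 gave 13.5% for the PC9 combination against persisters, 1.16% for HCC827 persisters, and 20.3 and 7.69% for HCC2935 persisters and the combination against them. Requiring a log2 fold change of at least 1 gave 34.1, 15.9, 15.4 and 37.5% in the 4 PC9 comparisons (persisters, combination against persisters, AZD5153, combination against AZD5153) and 19.9% in the H1975 combination against persisters. Long-arm members alone gave 31.0% for H1975 AZD5153 and 7.25% for the HCC2935 combination.

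The replicate block, fitted on the labels' replicate numbers, gave 57.7, 33.2, 26.0 and 63.0% in PC9, 64.4, 36.1, 52.8 and 59.5% in H1975 and 36.7 and 11.9% in HCC2935, within 1.5 times the unblocked shares. In HCC827 the pairing raised the share from 0.0 to 6.98% in persisters and left it at 0.0 in the combination.

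Median differences moved with position. On the long arm they were 0.46 (PC9 persisters), -0.10 (PC9 combination against persisters), 0.11 (PC9 AZD5153), 0.34 (PC9 combination against AZD5153), 1.63 (H1975 persisters), -0.60 (H1975 AZD5153), 1.93 (H1975 combination against AZD5153) and 0.32 (HCC2935 persisters). On the short arm they were 0.81 in the PC9 combination against AZD5153, -0.18 in H1975 persisters, -1.11 in H1975 AZD5153, 0.70 in the H1975 combination against AZD5153 and -0.00 in HCC2935 persisters, where the direction turned from 0.07. Leaving out long-arm members below 29 Mb, an alternative added after the values were seen, gave -0.12, -0.13, -1.03 and 0.72 in the H1975 comparisons (persisters, combination against persisters, AZD5153, combination against AZD5153). With a mean count of at least 10 the values were 0.59 (PC9 persisters), 0.61 (PC9 combination against AZD5153), -0.03, -1.10 and 1.03 (H1975 persisters, AZD5153, combination against AZD5153), and without the filter 0.08 and 0.60 (PC9 AZD5153, combination against AZD5153) and -0.76 and 0.80 (the same in H1975). Over 1 kb from a start they were 0.95 in the PC9 combination against AZD5153, -0.31 in the H1975 combination against persisters, -1.11 in H1975 AZD5153 and -0.15 in the HCC2935 combination.

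Leaving out 1 library at a time gave called shares of 43.0 to 48.9, 24.1 to 26.0, 20.2 to 23.5 and 54.4 to 57.0% in the 4 PC9 comparisons (in the order above), 56.2 to 59.2, 27.2 to 30.5, 45.9 to 47.8 and 48.9 to 53.7% in those of H1975, 0.0 throughout in HCC827, and 22.4 to 30.5 and 5.73 to 11.7% in HCC2935. The median differences ran from 0.65 to 0.73, -0.04 to -0.01, -0.03 to 0.06 and 0.58 to 0.66 in PC9, from 0.04 to 0.12, -0.24 to -0.19, -1.03 to -0.84 and 0.88 to 0.94 in H1975, from 0.24 to 0.52 and -0.18 to -0.07 in HCC827, and from 0.05 to 0.12 and -0.05 to 0.05 in HCC2935. The cause of these shifts was not tested. With scaling by library size alone the median of all regions was 0.218, -0.112, 0.185 and -0.138 in the H1975 comparisons (0.022, -0.016, -0.037 and -0.017 as reported) and -0.053 to 0.065 in the other lines. HCC827 had the fewest counts and the widest spread of the 4 lines.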
